A study of Mus musculus with 3 samples.

Results

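The 8 genes described here are 3 metallothioneins (Mt1, Mt2 and Mt3) and 5 genes that mark reactive astrocytes (Gfap, Vim, Serpina3n, Lcn2 and Cp). They were taken by symbol from a named list, and all 8 were found, once each, among the 28001 features of the deposited count matrix. The cells came from the nucleus accumbens of Thy1::ChR2 mice, a line in which the Thy1 promoter drives channelrhodopsin-2, a light-gated cation channel, mainly in neurons. All 3 samples form 1 group: the tissue was a coronal dissection of 400 um, and the treatment was FLiCRE labelling while ChR2 was stimulated with light in the accumbens. FLiCRE is a recorder that turns calcium and light together into transcription of a reporter. The labels name no unstimulated or untreated group, and do not give the age, the virus, the light delivery or the number of animals in a sample. No comparison of treated with untreated tissue was therefore possible, and every comparison below is between cells of the same libraries. Where nothing says that the 3 samples came from separate animals, p-values measure only the spread between these libraries.

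Metallothioneins are small cysteine-rich proteins that bind zinc and copper. Mt1 and Mt2 are made in many tissues and are induced by metals, through metal-responsive transcription factor 1 and its metal response elements, and by glucocorticoids, through the glucocorticoid receptor, while Mt3 is found mainly in brain. Reactive astrocytes are astrocytes that have changed after injury or inflammation, and they classically raise the intermediate filament proteins Gfap and Vim and secreted proteins such as Serpina3n, a serine protease inhibitor, and Lcn2, a carrier of iron-binding siderophores. Cp, ceruloplasmin, is a copper-carrying ferroxidase.

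In GRCm38 (mm10), GENCODE vM21 places all 3 metallothionein genes on the forward strand of chromosome 8, as protein-coding genes. Mt3 lies at chr8:94152607-94154146, Mt2 at chr8:94172664-94173568 and Mt1 at chr8:94179082-94180327. Mt2 and Mt1 are separated by 5513 bases, and Mt3 and Mt2 by 18517 bases. Gfap lies at chr11:102887336-102900912 on the reverse strand, Vim at chr2:13573927-13582826, Serpina3n at chr12:104406729-104414329, Lcn2 at chr2:32384633-32388252 on the reverse strand and Cp at chr3:19957054-20009145.

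The 250 bases before the RefSeq start (GRCm38.p6) of each metallothionein gene are shown because the 3 genes moved together across the libraries in astrocytes. They are given 5′ to 3′ on the forward strand, with the core of the metal response element in capitals, searched as TGCACNC and TGCGCNC on both strands. The windows are chr8:94178839-94179088 for Mt1, chr8:94172368-94172617 for Mt2 and chr8:94152357-94152606 for Mt3.
Mt1: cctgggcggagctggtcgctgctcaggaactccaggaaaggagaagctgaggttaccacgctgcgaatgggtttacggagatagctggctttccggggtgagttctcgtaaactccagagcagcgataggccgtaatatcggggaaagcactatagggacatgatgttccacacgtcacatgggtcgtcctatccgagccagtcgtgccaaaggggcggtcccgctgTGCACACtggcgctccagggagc
Mt2: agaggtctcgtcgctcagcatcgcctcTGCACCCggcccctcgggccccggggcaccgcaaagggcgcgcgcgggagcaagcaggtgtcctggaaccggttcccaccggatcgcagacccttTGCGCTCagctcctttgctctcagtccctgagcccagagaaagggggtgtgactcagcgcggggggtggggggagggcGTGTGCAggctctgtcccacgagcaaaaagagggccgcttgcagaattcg
Mt3: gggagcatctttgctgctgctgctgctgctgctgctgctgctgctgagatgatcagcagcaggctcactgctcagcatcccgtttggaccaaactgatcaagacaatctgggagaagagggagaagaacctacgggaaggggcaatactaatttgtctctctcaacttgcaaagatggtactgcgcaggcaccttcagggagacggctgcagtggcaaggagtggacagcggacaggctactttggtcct
The Mt1 window held 1 core, from 23 to 17 bases before the start. The Mt2 window held 3, from 223 to 217, from 128 to 122 and, on the opposite strand, from 50 to 44 bases before the start. Of 32851 RefSeq windows of the same length, 21.4% held at least 1 core and 1.26% held at least 3. The Mt3 window held none of these letters, and neither did the windows of the 5 other genes. RefSeq and GENCODE starts differ for some of these genes. The windows of Gfap, Vim and Lcn2 lie inside the GENCODE gene positions given above, and the end of the Mt1 window overlaps that of Mt1. For each gene 1 RefSeq start was used, and bases outside its window were not searched. The counts therefore hold for these windows only and do not rank Mt1 against Mt2 by their number of elements. A match is a description of the letters and not a measured binding site.

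The deposited matrix held 11625 cells, of which 9923 were kept, in 3 libraries told apart by the barcode suffix (2306, 5783 and 1834 cells, with 2788685, 14563414 and 6267259 unique molecular identifiers, UMIs, which count each captured RNA molecule once). The library numbers are names only, since the labels do not link a suffix to a replicate number. Between 7 and 22 barcodes were shared by a pair of libraries. Cells were put in a class where at least 3 markers of that class were detected and at least 2 more than of any other class. None of the 8 genes served as a marker. This gave 966 astrocytes (308, 468 and 190 in libraries 1, 2 and 3), whose median depth was 1533.5, 2123 and 3426 UMIs. Astrocytes had a median of 6 astrocyte markers and 1 neuronal marker, and a median of 0 for the other classes. All 8 astrocyte genes kept out of the gate, among them Apoe, Clu and Glul, were higher in astrocytes than in neurons by edgeR's quasi-likelihood test at an adjusted p under 0.05. In that test 28.4% of all genes were higher. There were 103 astrocytes (10.7%) at the lower limit of the gate. A further 1012 cells stayed without a class.

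Mt1 was higher in astrocytes than in any other class in each library. Its level in astrocytes, in UMIs of the gene per 1000000 UMIs of the class (CPM), was 46064, 11178 and 27510 in libraries 1, 2 and 3 (28251 ± 17455, SD, n = 3). Oligodendrocytes came next with 3617, 1196 and 2161 CPM, all below the lowest astrocyte value, and their mean was 12.2 times lower. Endothelial cells (1149 ± 343 CPM, SD, n = 3), microglia (1028 ± 342 CPM) and neurons (731 ± 158 CPM) followed, and each neighbour in this order overlapped the next. Among neurons, cells gated as D1 and D2 spiny neurons and the remaining neurons overlapped too, at 867 ± 255, 726 ± 185 and 618 ± 146 CPM (SD, n = 3). Whether levels of Mt1, Mt2 and Mt3 outside astrocytes come from free RNA, released by other cells, was not tested.

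Mt2 was also highest in astrocytes, with a different class next. Astrocytes held 11346, 2969 and 9315 CPM (7877 ± 4370, SD, n = 3), and the next class, endothelial cells, held 569, 261 and 318 CPM. The ranges did not overlap, and the means stood 20.6 times apart. Below endothelial cells no pair of neighbours was separated, down to macrophages at 86.0 ± 24.3 CPM (SD, n = 3).

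Mt3 had a different second tier. Astrocytes held 14753, 3828 and 7983 CPM (8854 ± 5514, SD, n = 3), followed by oligodendrocyte precursor cells (OPCs) with 1328, 650 and 927 CPM and neurons with 1042, 434 and 705 CPM. OPCs and neurons overlapped. Both lay above oligodendrocytes (321, 213 and 214 CPM) in every library, and the neuronal range did not overlap the oligodendrocyte range. Endothelial cells were lowest, at 127 ± 23.3 CPM (SD, n = 3). Within one class the number of Mt1 UMIs per Mt3 UMI shows this shift: it was 3.12, 2.92 and 3.45 in astrocytes, 11.3, 5.61 and 10.1 in oligodendrocytes, 0.876, 1.495 and 0.897 in neurons, and 0.737, 0.821 and 0.607 in OPCs, which rest on 14 to 34 Mt1 UMIs per library.

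**Figure D1:**
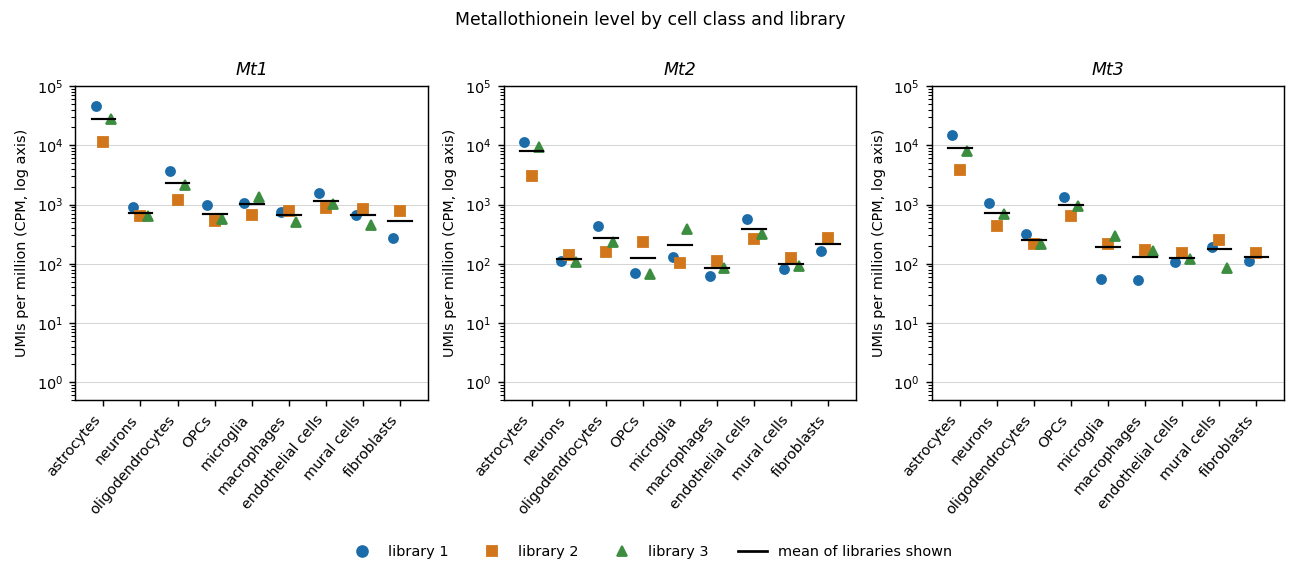
Level of Mt1, Mt2 and Mt3 (CPM, log axis) in 9 cell classes, 1 point per library with at least 10 cells of the class and a bar for the mean. Astrocytes lie above every other class in each panel, with library 1 highest and library 2 lowest, and OPCs and neurons form the second tier for Mt3.

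The metallothioneins of astrocytes differed between libraries more than most genes did. The level in library 1, the highest, was 4.12 times that in library 2, the lowest, for Mt1, 3.82 times for Mt2 and 3.85 times for Mt3. Of 1078 genes with at least 100 CPM in all 3 astrocyte sums, 0.928%, 1.21% and 1.11% had a ratio as large as that of Mt1, Mt2 and Mt3, and the median ratio was 1.55. Together the 3 genes took 7.22%, 1.80% and 4.48% of all astrocyte UMIs. Counting error was small beside this: the exact Poisson 95% interval of Mt1 was 45492 to 46642 CPM in library 1 and 10995 to 11363 CPM in library 2. No test was possible, since a library is a single sample. Outside astrocytes, Mt1 was also highest in library 1 and lowest in library 2 in oligodendrocytes, endothelial cells and OPCs. Oligodendrocytes held 3617, 1196 and 2161 CPM in libraries 1, 2 and 3, and endothelial cells 1537, 885 and 1026 CPM. The Mt1 order differed in microglia (1052, 676 and 1358 CPM), macrophages and mural cells. It also differed in neurons (913, 649 and 632 CPM), but library 1 was still highest there. The Poisson 95% intervals of neurons in libraries 2 and 3 overlapped (633 to 665 and 604 to 660 CPM). For Mt3 the astrocyte order was also taken by neurons (1042, 434 and 705 CPM), OPCs (1328, 650 and 927 CPM) and, narrowly, oligodendrocytes (321, 213 and 214 CPM). It was not taken by microglia, macrophages, endothelial cells or mural cells.

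Some other astrocyte genes took the same order of libraries with smaller ratios. They were Gfap, 3 of the 8 gate markers (Slc1a3, Slc1a2 and Gja1, with Slc1a2 at a ratio of 2.09) and 2 of the 8 astrocyte genes kept out of the gate (Clu and Glul). Clu was almost equal in libraries 2 and 3 (3874 and 3877 CPM). The share of all genes with this order was not counted, so these counts do not set astrocyte genes apart. The neuronal markers ran the opposite way: the summed level of the 8 markers of the neuronal gate in astrocytes was 171, 1147 and 441 CPM in libraries 1, 2 and 3, with all 8 highest in library 2 and none at 0. In neurons that sum was 12310, 11768 and 14271 CPM. Markers of other classes in astrocytes did not all run this way. The 8 oligodendrocyte markers summed to 169, 305 and 832 CPM in libraries 1, 2 and 3, with 2 of them highest in library 2. The microglial markers summed to 94.9, 172 and 90.2 CPM and the endothelial markers to 16.7, 83.9 and 67.3 CPM. The summed level of 10 glucocorticoid-response genes in astrocytes, of which 1 was at 0, was 582, 791 and 1167 CPM in libraries 1, 2 and 3. Cdkn1a alone gave 331, 416 and 799 CPM of it. The other genes did not share 1 order: Klf9 rose (74.4, 84.7 and 147 CPM) and Per1 fell (20.5, 18.8 and 17.5 CPM). The summed level of 16 dissociation and early-response genes was 1001, 1687 and 1517 CPM, of which Hspa8 gave 586, 840 and 620 CPM. The 8 astrocyte genes kept out of the gate summed to 61518, 57150 and 35613 CPM. The median mitochondrial share of astrocytes was 8.56%, 12.1% and 12.9%. The part of all these measures in the difference between libraries was not tested.

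Gfap, the filament protein that defines many astrocytes, was higher in astrocytes than in any other class. Astrocytes held 4477, 2929 and 3920 CPM (3775 ± 784, SD, n = 3), a ratio of 1.53 from lowest to highest library. Microglia came next with 27.9, 145 and 359 CPM, and the means differed 21.3 times without overlap. All further neighbours overlapped, down to endothelial cells at 54.9 ± 30.3 CPM (SD, n = 3). When each cell was thinned to 1000 UMIs, Gfap was detected in 86.8%, 67.6% and 82.4% of astrocytes (86.3%, 66.6% and 88.2% in a second random draw) and, in that second draw, in 3.44%, 8.85% and 5.95% of neurons. Whether the neuronal share comes from free RNA was not tested. Without thinning the shares were 81.2%, 73.7% and 92.1% in astrocytes and 4.29%, 21.5% and 19.4% in neurons, whose median depths were 1041, 2458 and 2565 UMIs.

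Vim, a filament protein of astrocytes and of cells of mesenchymal origin, was not particular to astrocytes. It stood at 646, 738 and 934 CPM in astrocytes (772 ± 147, SD, n = 3) and at 507, 708 and 868 CPM in endothelial cells (695 ± 181). These ranges overlapped. Mural cells held 443 ± 39.9 CPM (SD, n = 3), and neurons had the lowest mean, from 6.28, 56.7 and 15.3 CPM.

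Serpina3n was shared by the macroglia. Oligodendrocytes held 808, 763 and 1076 CPM (882 ± 170, SD, n = 3) and astrocytes 953, 648 and 610 CPM (737 ± 188). OPCs held 2027, 232 and 132 CPM, and the value of library 1 came from 29 UMIs in 3 of 15 cells. These 3 classes overlapped. The next class, macrophages, was 20.2 times below astrocytes on the means, with 9.01, 31.0 and 69.5 CPM, and did not overlap them.

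Lcn2 was low and uneven. Astrocytes held 96.8, 269 and 32.3 CPM (133 ± 122, SD, n = 3) and endothelial cells 145, 87.0 and 52.4 CPM (94.7 ± 46.7), so the classes overlapped. Neurons held 1.05, 12.6 and 0 CPM. OPCs gave 1 Lcn2 UMI and mural cells 2 over all 3 libraries, so no fold is given for Lcn2 against them. Serpina3n in mural cells rests on 3 UMIs, and no fold is given for it either. Without library 2 the astrocyte mean was 64.5 CPM. In astrocytes library 2 was highest for Lcn2, the library that was lowest for Mt1, Mt2 and Mt3. Of the 343 Lcn2 UMIs in its astrocytes, 157 came from 1 cell.

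Cp was highest in cells other than astrocytes. Fibroblasts held 662 and 847 CPM in libraries 1 and 2, the only libraries with at least 10 of them. Mural cells held 379, 790 and 426 CPM (532 ± 225, SD, n = 3) and endothelial cells 347, 333 and 191 CPM (290 ± 86.1). Astrocytes held 14.9, 30.6 and 22.9 CPM (22.8 ± 7.85), from 8, 39 and 17 UMIs, and overlapped microglia above them and macrophages below.

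**Figure D2:**
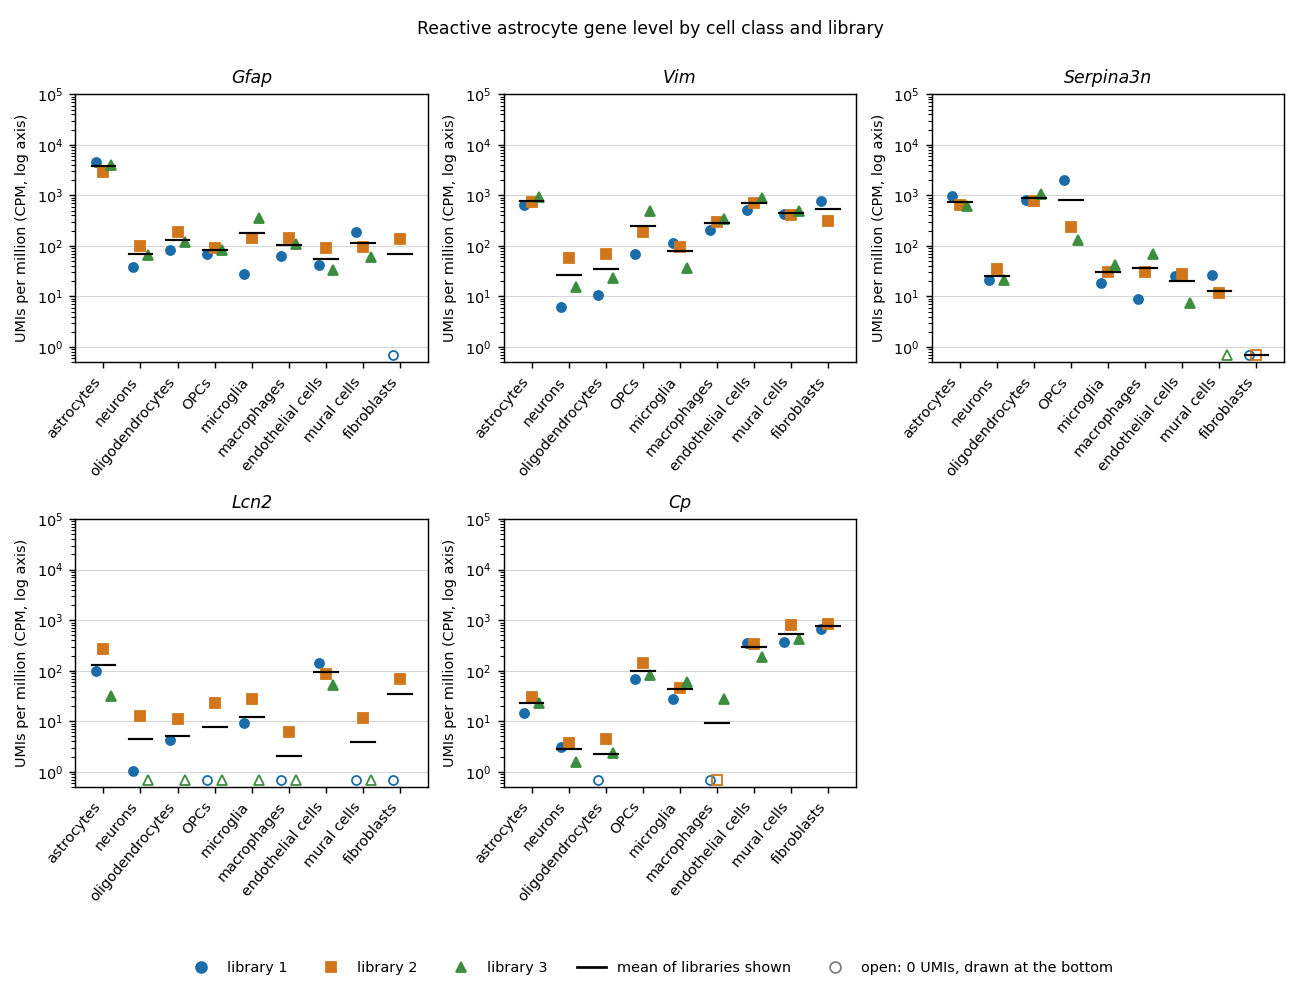
Level of Gfap, Vim, Serpina3n, Lcn2 and Cp (CPM, log axis) in 9 cell classes, 1 point per library with at least 10 cells of the class, a bar for the mean, and open points for 0 UMIs. Gfap is highest in astrocytes, Vim is shared with vascular cells, Serpina3n with oligodendrocytes and OPCs, and Cp is highest in fibroblasts and mural cells.

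The classes were then compared across the 3 libraries with edgeR's quasi-likelihood test on counts summed per class and library, with the library as a block and Benjamini-Hochberg adjustment over 7803 genes. Calls are at an adjusted p under 0.05. The 6 comparisons share the astrocyte sums and are not independent. All 8 genes passed the filter on low counts. Without genes that had 3 or fewer UMIs in the other class (Lcn2 in OPCs, Lcn2 and Serpina3n in mural cells), the median log2 fold change ran from 4.01 (against OPCs, 7 genes) to 5.63 (against mural cells, 6 genes), beside medians over all genes from -0.14 to 0.44.

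All 8 genes were higher in astrocytes than in neurons, where 28.4% of all genes were higher and 33.7% lower. The log2 fold change was 5.54 ± 0.38 (SE) for Mt1, 6.22 ± 0.53 for Mt2 and 3.99 ± 0.46 for Mt3. It was 6.24 ± 0.45 for Gfap, 5.25 ± 0.58 for Vim, 5.08 ± 0.43 for Serpina3n, 4.98 ± 0.44 for Lcn2 and 3.35 ± 0.44 for Cp. The largest adjusted p among them was 3.99e-07, for Vim, and each gene was higher in 3 of 3 libraries. Lcn2 in neurons rests on 1, 123 and 0 UMIs in libraries 1, 2 and 3. In library 2, 157 of the 343 Lcn2 UMIs in astrocytes came from 1 cell.

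Against oligodendrocytes 7 of the 8 were higher and none was lower, beside 22.3% and 17.7% of all genes. Mt1 was higher by 3.57 ± 0.34 (SE) on the log2 scale, Mt2 by 4.82 ± 0.50 and Mt3 by 5.09 ± 0.49. Serpina3n did not pass (log2 fold change -0.35 ± 0.36, adjusted p = 0.475), and its sign differed between libraries. Against OPCs 7 were higher and none lower, beside 12.3% and 4.84% of all genes. The log2 fold change was 4.01 ± 0.50 for Mt3, 6.11 ± 0.41 for Mt1 and 6.52 ± 0.65 for Mt2; the differences between these genes were not tested. Cp did not pass (-1.41 ± 0.61, adjusted p = 0.117). Serpina3n was called higher than in OPCs (1.41 ± 0.46, adjusted p = 0.0314), but it was higher in only 2 of 3 libraries and its mean CPM was higher in OPCs. That call was lost with DESeq2 (adjusted p = 0.376), with RLE factors (0.170), with no library block (0.148), without library 2 (0.362) and without library 3 (0.134). Vim against OPCs (2.17 ± 0.64, adjusted p = 0.0253) was lost without library 1 (0.122), and Lcn2 against OPCs with no library block (0.0566).

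Against microglia 7 were higher and none lower, beside 22% and 18.4% of all genes. Cp did not pass (-0.95 ± 0.48, adjusted p = 0.118), though it was lower in 3 of 3 libraries. Against endothelial cells 5 were higher and 1 was lower, beside 21.9% and 20.5% of all genes: Cp fell by 3.49 on the log2 scale (SE 0.36, adjusted p = 2.04e-11), while Vim (0.35 ± 0.48, adjusted p = 0.609) and Lcn2 (0.40 ± 0.43, adjusted p = 0.491) did not pass. Against mural cells 6 were higher and 1 was lower, beside 15.9% and 12.5% of all genes. Cp fell by 4.26 on the log2 scale (SE 0.37, adjusted p = 2.82e-13). Vim did not pass against mural cells (1.16 ± 0.54, adjusted p = 0.128), but did without library 2 (adjusted p = 0.0342), with the stricter gate (0.00200), with no filter on low counts (4.5e-05) and with the package-default prior (0.0382).

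**Figure D3:**
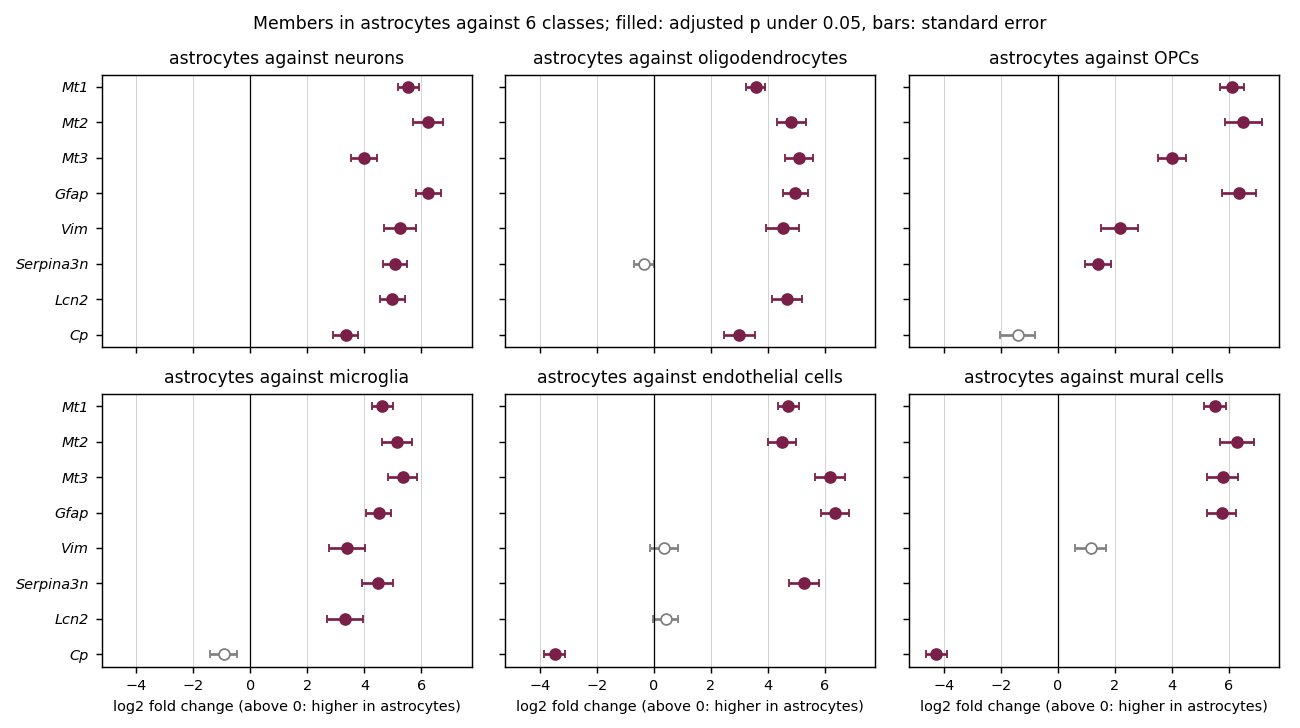
Log2 fold change of the 8 genes in astrocytes against 6 classes, without Lcn2 against OPCs and Lcn2 and Serpina3n against mural cells (horizontal axis; above 0 is higher in astrocytes), with the standard error as a bar and filled points for an adjusted p under 0.05. The metallothioneins and Gfap are on the right in every panel, and Cp is on the left against endothelial and mural cells.

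Other genes of metal handling were described from a list of 28, of which 19 were tested. Against neurons 12 (63.2%) were higher in astrocytes and 2 (10.5%) lower, beside 28.4% and 33.7% of all genes. Slc39a12, a zinc importer, was higher by 6.23 ± 0.38 (log2, SE), with 181 ± 8.32 CPM (SD, n = 3) in astrocytes. Fth1, the ferritin heavy chain that stores iron, was higher by 2.78 ± 0.38, Hmox1, a haem-degrading enzyme, by 2.72 ± 0.67, and Slc39a1, another zinc importer, by 2.71 ± 0.29. Between the astrocytes of the 3 libraries Slc39a1 (142 ± 169 CPM, SD, n = 3) and Hmox1 (93.3 ± 54.7 CPM) varied widely. Against oligodendrocytes 9 (47.4%) were higher and 2 (10.5%) lower, beside 22.3% and 17.7% of all genes, and Trf, the iron carrier transferrin, fell by 6.04 on the log2 scale (SE 0.46). Against endothelial cells 4 (21.1%) were higher and 7 (36.8%) lower, beside 21.9% and 20.5% of all genes, so the share of higher genes was near that of all genes. Slc40a1, the iron exporter ferroportin, gave 4 UMIs in all astrocytes and 144 in endothelial cells, and Slc39a8, a zinc and manganese importer, gave 4 and 106. Slc39a12 gave 456 and 1. No fold is given for these 3 genes.

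Of 8 other genes of the reactive astrocyte list, 6 were tested. All 6 were higher in astrocytes than in neurons and than in oligodendrocytes, beside 28.4% and 22.3% of all genes. Against endothelial cells 4 (66.7%) were higher and 1 (16.7%) lower, beside 21.9% and 20.5% of all genes. Against neurons Osmr, a cytokine receptor chain, was higher by 5.82 ± 0.40 (log2, SE), Cd44, a hyaluronan receptor, by 5.33 ± 0.62, and Cxcl10, an interferon-induced chemokine, by 5.22 ± 0.62. Cxcl10 varied between the astrocytes of the 3 libraries (604 ± 523 CPM, SD, n = 3). Of 8 tested genes known as A1 markers, 7 (87.5%) were higher than in neurons and none lower, beside 28.4% and 33.7% of all genes. Among them were Ggta1 (5.43 ± 0.45) and Serping1 (5.17 ± 0.41). Against oligodendrocytes 3 (37.5%) were higher and 2 (25%) lower, beside 22.3% and 17.7% of all genes. Against endothelial cells 1 was higher and 4 were lower (12.5% and 50%, beside 21.9% and 20.5% of all genes). Of 4 tested A2 markers 2 (50%) were higher and 1 (25%) lower than in neurons, beside 28.4% and 33.7% of all genes. Against oligodendrocytes 2 (50%) were higher and none lower, beside 22.3% and 17.7%. Against endothelial cells 1 (25%) was higher and 3 (75%) were lower, beside 21.9% and 20.5%.

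The spread among astrocytes was measured after thinning each cell to 1000 UMIs, which left 227, 401 and 170 cells and left out 81, 67 and 20 shallower ones. Mt1 was found in 100%, 98.8% and 100% of these cells, with a median of 45, 8 and 19 UMIs. Its 10th and 90th percentiles were 21 and 70.4 UMIs in library 1, 2 and 18 in library 2, and 8 and 40.1 in library 3. The percentiles shifted together from library to library. The variance of Mt1 was 9.06, 4.92 and 9.38 times its mean (the Fano factor, which is 1 for random sampling alone). This factor grows with the mean, so the excess over 1 was divided by the mean to compare genes. The scaled excess was 0.177, 0.430 and 0.366 for Mt1, 0.239, 0.399 and 0.671 for Mt2, and 0.105, 0.257 and 0.110 for Mt3. The value of Mt3 was the lowest of the 3 in each library, while Mt1 and Mt2 changed places between libraries. Apoe, an astrocyte gene kept out of the gate, gave 0.193, 0.219 and 0.519, and Glul 0.177, 0.154 and 0.244.

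Gfap had a median of 4, 1 and 3 UMIs. Vim was found in 36.1%, 29.4% and 39.4% of cells and Serpina3n in 48.0%, 26.2% and 31.8%. The top 10% of cells held 63.9% of Vim UMIs and 66.0% of Serpina3n UMIs in library 2, against 26.1% of Mt1 UMIs there. Low counts alone raise such a share, and Vim and Serpina3n had 0.574 and 0.514 UMIs per cell in that library.

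Across cells, Mt1 and Mt2 varied together in each library (Pearson r from 0.59 to 0.63 over the cells of each of the 3 libraries). Mt1 and Mt3 did so less evenly (0.21 to 0.59). Vim and Serpina3n gave 0.31 to 0.54, and Gfap and Vim 0.22 to 0.25. Mt1 with Gfap ranged from -0.13 to 0.43 and Mt1 with Serpina3n from -0.04 to 0.15. The cells of a library share its depth and preparation, and these values are descriptions.

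Lcn2 was held by few cells. Of 998 Lcn2 UMIs in library 2, 596 came from 10 cells, and of 343 in its astrocytes, 252 came from 10 of 468 cells. The cells with at least 20 Lcn2 UMIs, a threshold chosen after the values were seen, numbered 7, all in library 2. They held 9 to 48 Gfap UMIs and 12 to 49 Vim UMIs, and no UMI of the neutrophil genes S100a8 and S100a9. Only 2 of the 7 passed the astrocyte gate, and 5 stayed without a class, of which 4 had most markers from neurons. They held 5203 to 13910 UMIs, against a median of 2123 in the astrocytes of that library. Whether they are doublets was not tested.

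Astrocytes with and without a detected Gfap UMI were compared within each library, after thinning to 1000 UMIs and with Gfap left out of the fit. There were 197, 271 and 140 Gfap-positive and 30, 130 and 30 Gfap-negative cells. Vim was higher in the Gfap-positive cells, with 594, 731 and 921 CPM against 333, 246 and 233 CPM. Its log2 fold change was 1.52 ± 0.22 (SE; edgeR's quasi-likelihood test, adjusted p = 0.00615). Serpina3n was also higher, with 1051, 638 and 636 CPM against 667, 254 and 233 CPM (1.15 ± 0.21, adjusted p = 0.0257). The positive cells were higher than the negative cells of the same library in 3 of 3 libraries for both genes. In the Gfap-negative cells of libraries 1 and 3 the values rest on few counts: 10 and 7 UMIs for Vim, and 20 and 7 for Serpina3n.

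The metallothioneins did not pass this test. Mt1 was at 45396, 10454 and 23893 CPM in Gfap-positive and 46467, 6300 and 18200 CPM in Gfap-negative cells (log2 fold change 0.40 ± 0.17, adjusted p = 0.464), and Mt2 gave 0.38 ± 0.17 (adjusted p = 0.480). Mt3 gave 0.10 ± 0.15 (adjusted p = 0.890). Lcn2 and Cp had too few counts to be tested. Thus 2 of 5 tested genes were higher and none lower, where 0.238% of 2097 genes were higher and 0.286% lower.

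**Figure D4:**
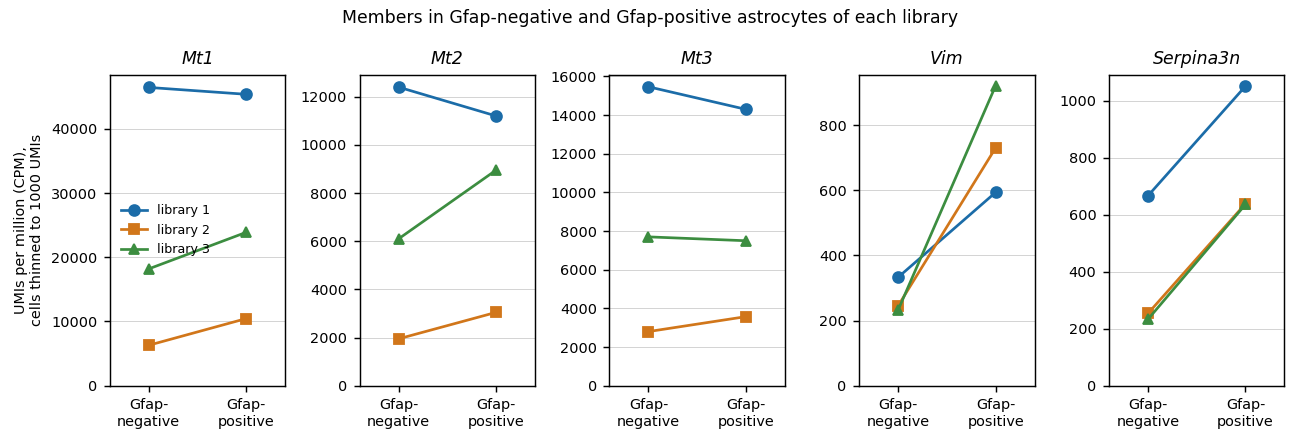
Level of 5 genes (CPM of cells thinned to 1000 UMIs, axes from 0) in Gfap-negative and Gfap-positive astrocytes, with a line joining the values of each library. Vim and Serpina3n are higher in the Gfap-positive cells of all 3 libraries, while Mt1 and Mt2 are higher in libraries 2 and 3, Mt3 in library 2, and none of these 3 in library 1.

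Over all genes 5 were higher and 6 lower in Gfap-positive astrocytes. Besides Vim and Serpina3n the higher genes were Dhrs1, a dehydrogenase (1.54 ± 0.20 on the log2 scale, SE), Igfbp5, a binding protein of insulin-like growth factors (1.30 ± 0.22), and S100a6, a calcium-binding protein (0.90 ± 0.17). The lower genes included Hes5, a Notch target (fell by 1.88, SE 0.21), Lmo1, a LIM-domain transcription cofactor (fell by 1.79, SE 0.33), Slc6a11, a GABA transporter (fell by 1.19, SE 0.24), Malat1, a nuclear long non-coding RNA (fell by 1.02, SE 0.19), and Mfge8, a secreted bridging protein (fell by 1.02, SE 0.19). Gfap-positive cells were deeper before thinning, with medians of 1940, 3023 and 3879.5 UMIs against 1473.5, 1710 and 2798, and in library 2 they held a median of 3 neuronal markers against 2; the part of these in the result was not tested. These calls rest on all 3 libraries: without library 1, 2 or 3 the test called 0, 1 and 0 genes and none of the 8 described here (232, 103 and 192 genes had an unadjusted p under 0.05), and with no library block it called 0 (61 unadjusted; DESeq2 with the block called 11). The log2 fold change of Vim without a library stayed between 1.42 and 1.72.

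Astrocytes with an mCherry UMI numbered 14, 65 and 28 after thinning. Their Mt1 level was 45143, 13800 and 29393 CPM, against 45563, 8199 and 21606 CPM in astrocytes with none. Gfap was at 5357, 3292 and 3536 CPM against 4244, 2024 and 3408 CPM. Vim was at 357, 985 and 1036 CPM against 573, 494 and 754 CPM, and Serpina3n at 786, 708 and 1071 CPM against 1014, 476 and 465 CPM. Both were thus lower with mCherry in library 1 and higher in libraries 2 and 3. These differences were not tested.

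Genes whose level across 28 sums of a class in a library was most like that of a member were ranked by Pearson r of log2(CPM + 10) among 10876 genes, as a description. For Mt1 they were Acot11, Cbs and Mt2 (r from 0.92 to 0.93), and for Mt2 they were Fam107a, Mt1 and the zinc importer Slc39a12 (0.91 to 0.93). For Mt3 they were Scg3, Ntrk2 and Slc1a2 (0.91 to 0.93), and for Gfap Aqp4, Slc1a2 and Prdx6 (0.90 to 0.93). Serpina3n was most like Kcnj10, Cmtm5 and Wscd1 (0.90 to 0.91), and Vim was least well matched, with S100a11, Ccnd3 and Svbp (0.74 to 0.79). Sums of a class from 3 libraries are not independent.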

How the data were processed

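Libraries of 3 samples of 1 group were prepared with version 2 of the 10x Genomics 3′ kit for single cells, per the labels. The authors deposited raw UMI counts, as whole numbers in 1 pooled matrix of genes by cells, made with Cell Ranger 3.0 on mm10 per the submitters' processing notes; the annotation release is not given in the sources used here. Whether libraries were thinned to equal depth when pooled is not given either. Cells were kept from 300 detected genes upward and up to 20% of counts from mitochondrial genes. Scrublet (scanpy 1.11.5) marked 57, 2 and 17 cells by its own threshold, judged not to have worked, so the highest scores were removed at 0.8% per 1000 cells (44, 296 and 28 cells). The members and gene lists were chosen with earlier results of these data known.

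Classes came from a gate of 8 markers each, T cells from the 7 that were found. Counts were summed per class and library and tested with edgeR 4.0.16 (TMM, quasi-likelihood, library as a block, Benjamini-Hochberg at 0.05) over 24 sums of the 8 classes with at least 10 cells in every library, which left out fibroblasts and T cells, so the planned comparison with fibroblasts was not fitted. The block stands for 2 sums of the same library. Thinning used a fixed seed. Alternatives were DESeq2 1.42.0, RLE factors, no filter, the package-default prior, other gates, depths and libraries left out. Poisson intervals cover counting error only. The fit was tested on simulated data. Genes named were all 8 members; at most 4 genes of a list and comparison with the largest change past the threshold; the 10 highest and 5 lowest genes by change of the Gfap comparison with the same sign in every library; and the 3 genes most like a member. The Lcn2-rich cells were chosen after the values were seen.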

Additional observations from a re-analysis of the deposited data

How the results depend on the processing

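For the 6 comparisons between classes, the number of the 8 genes called stayed within 1.5 times the reported count under every alternative that could be run (69 of 69), and no called log2 fold change reversed; 7 lost their call and 4 gained one, all of them Serpina3n, Vim or Lcn2 against OPCs or Vim against mural cells. The mean CPM of each gene in astrocytes moved by less than 1 SD in all 56 alternatives, but with 3 libraries that SD is wide: the mean of Lcn2 was 133 CPM, 64.5 without library 2 and 77.7 with the stricter gate. The comparison of Gfap-positive with Gfap-negative astrocytes depended on the settings. It called 2 of the 8 genes, and it called 0 with no replicate block, 0 without each replicate in turn and 5 with no filter on low counts. Over all genes it called 11, and it called 0 with no replicate block, 0 to 1 without one replicate, 58 with no filter (8 of them among the 11), 18 with the package-default prior (11 of them) and 24 with cells thinned to 500 UMIs (9 of them); the fits without a library use 2 libraries, and otherwise the cause was not tested. With no filter Mt1 (0.76) and Mt2 (0.74, log2 fold change) passed, and the median of all genes was 0.34. Thinning to 2000 UMIs could not be fitted, because only 1 library had 10 cells in both arms. OPCs were not fitted with the stricter gate or with cells of at least 1000 UMIs, nor mural cells with the latter. Lcn2 and Cp in astrocytes rest on 24 to 343 and 8 to 39 UMIs per library, which limits both.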
